A study of Mus musculus with 6 samples.

Results

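Azurophil granules are the primary granules of neutrophils, packed with myeloperoxidase and serine proteases while the cell is still a promyelocyte. Their genes are switched on at the step from granulocyte and monocyte progenitor to promyelocyte and are shut down before the specific and tertiary granules are filled. In acute myeloid leukemia (AML) their products are used to recognise granulocytic maturation of the blasts. The gene set described here named 9 genes, picked by name rather than by a threshold on measured values, though with earlier results of these data known. Of these, 8 were found among the 13892 gene symbols of the deposited expression table. PRSS57, a further serine protease of this granule, is not analysed here. The set is wider than its name. Myeloperoxidase (MPO), neutrophil elastase (ELANE), azurocidin (AZU1), proteinase 3 (PRTN3) and cathepsin G (CTSG) are granule contents. MS4A3 is a membrane protein of granulocyte and monocyte progenitors, CEBPE a transcription factor of granulocyte maturation, and CST7 the protease inhibitor cystatin F.

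RNA was sequenced from human leukemic cells sorted from the marrow of moribund humanized NSG mice, an immunodeficient strain, after transduction of human hematopoietic stem cells with NPM1c, a mutant nucleophosmin displaced to the cytoplasm. From each of 3 mice, each from a separate transduction, 2 populations were taken: leukemic stem cells (LSC), positive for GFP, CD33 and CD123, and bulk leukemic cells, positive for GFP and CD33 with no statement on CD123. All cells of both populations therefore carried the NPM1c vector, for which GFP stood in, and no untransduced cells were included. There were 3 LSC and 3 bulk libraries, 1 of each per mouse, and the mice are numbered 1 to 3. Each mouse was sampled once per population, so a difference between mice is a difference between single animals.

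The table held 10669560 to 14933494 reads per library. Between 27.2% and 70.0% of them fell to the 10 rows of the MTRNR2L family, copies in the nucleus of a mitochondrial rRNA stretch, and the share was highest in bulk replicate 1. A value of 3 reads corresponded to 0.190 to 0.222 CPM (read counts scaled to a common library size with the normalization of the authors) in LSC libraries and to 0.192 to 0.514 CPM in bulk libraries. Such limits and the intervals below cover counting error only. IL3RA, which encodes CD123, stood at 140, 48.0 and 135 CPM in LSC of mice 1, 2 and 3, against 1.54, 2.12 and 2.37 CPM in bulk. CD33 stood at 6.80, 8.05 and 1.17 CPM in LSC and at 4.45, 8.21 and 13.1 CPM in bulk, so the CD33 message was lowest in LSC of mouse 3. NPM1, whose endogenous and transduced messages the table does not separate, stood at 516, 323 and 417 CPM in LSC and at 911, 733 and 788 CPM in bulk.

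All 8 genes were lower in LSC than in bulk cells of the same mouse, in each of the 3 mice, and all 8 were far lower in mouse 3 than in mice 1 and 2, in both populations. The distance between mice was larger than that between populations, so that no gene of the set separated all LSC from all bulk libraries. Summed over the 8 genes, LSC held 628, 1109 and 37.3 CPM in mice 1, 2 and 3, against 1829, 3415 and 160.9 CPM in bulk. Of reads outside the MTRNR2L rows, these genes took 0.105%, 0.218% and 0.00685% in LSC and 0.312%, 0.658% and 0.0263% in bulk. In RNA of sorted populations, fewer cells of a type and less RNA per cell cannot be told apart.

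**Figure D1:**
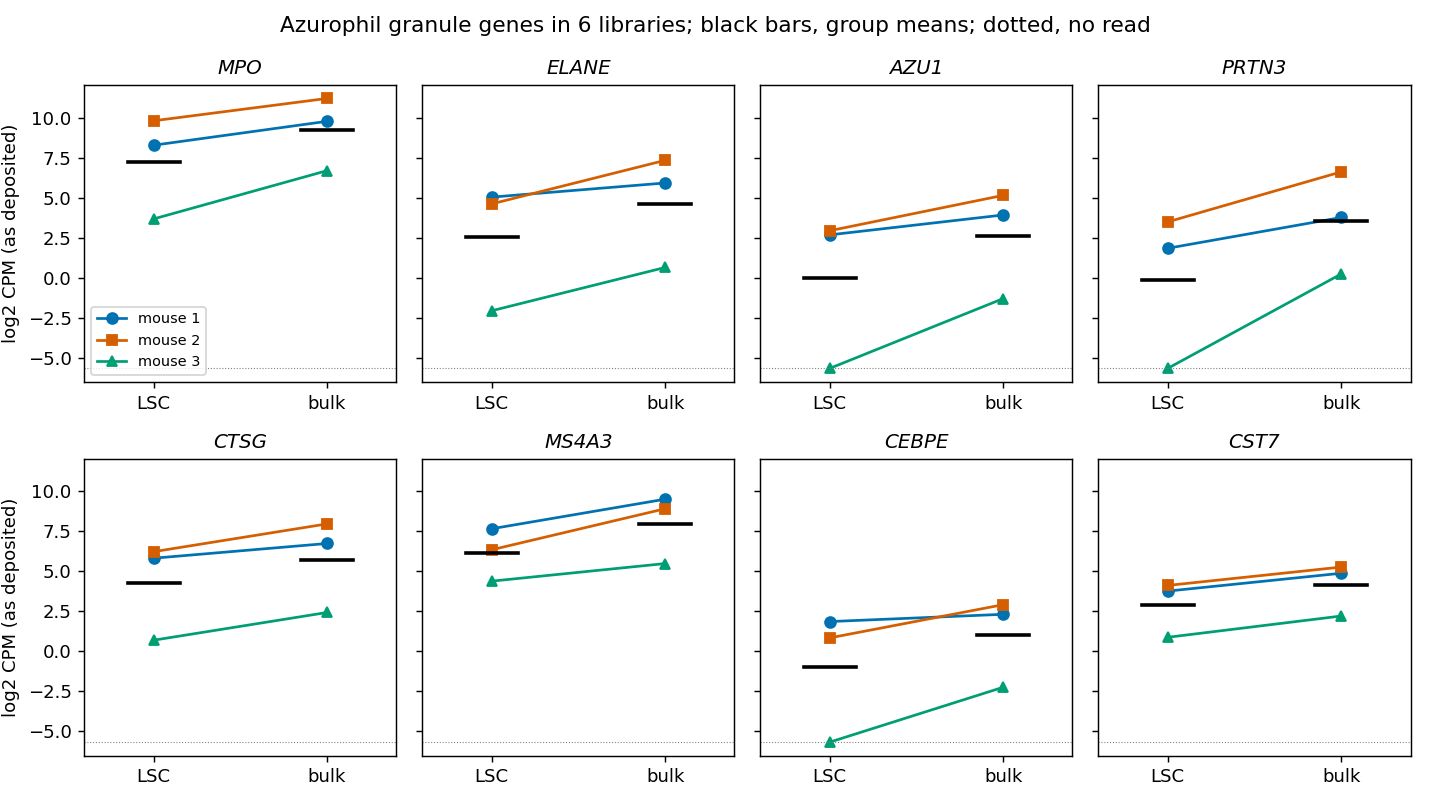
Deposited log2 CPM of the 8 azurophil granule genes, 1 panel per gene, in LSC (left) and bulk (right) libraries, with a line joining the libraries of 1 mouse, black bars for group means and a dotted line for a value without a read. All 24 lines go up from LSC to bulk, and the 2 libraries of mouse 3 lie lowest within their population for every gene.

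MPO makes hypochlorous acid from hydrogen peroxide in the phagosome and defines myeloid blasts in diagnosis. It stood at 309, 890.4 and 12.7 CPM in LSC of mice 1, 2 and 3, against 871, 2344 and 103 CPM in bulk. LSC of mouse 2 exceeded bulk of mice 1 and 3, so the groups overlapped, yet LSC was the lower library in each mouse. The mean was 404 ± 446 CPM in LSC and 1106 ± 1139 CPM in bulk (SD, n = 3 each). The log2 change, LSC over bulk, was -1.97 (SE 1.51, limma adjusted p = 0.496) when the mice were left out of the model. Fitted with a term for the mouse (a block), its SE was 0.30 and the adjusted p 0.00432.

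ELANE, AZU1 and PRTN3 sit side by side in one gene cluster and encode elastase, the antimicrobial protein azurocidin and the autoantigen of granulomatosis with polyangiitis. ELANE, which is mutated in severe congenital neutropenia, stood at 32.7, 24.3 and 0.219 CPM in LSC of mice 1, 2 and 3, against 60.3, 160.7 and 1.54 CPM in bulk. In mouse 3 these were 3 and 24 reads, a level 7.02-fold lower in LSC with an exact 95% counting interval of 2.13 to 36.4. PRTN3 stood at 3.55, 11.2 and 0 CPM in LSC and at 13.5, 97.5 and 1.15 CPM in bulk. Bulk of mouse 2 was by far its highest library, and its LSC library of mouse 3 had no read, against 18 reads in bulk of that mouse. Set against a floor of 3 reads in that library, PRTN3 was at least 5.26-fold lower in LSC of mouse 3, and the exact 95% counting interval of the ratio, which counts the error of both libraries, began at 3.86. AZU1, a protease relative without enzyme activity, stood at 6.35, 7.61 and 0 CPM in LSC and at 15.1, 35.2 and 0.384 CPM in bulk. By the same floor its 6 bulk reads in mouse 3 make the level at least 1.75-fold lower in LSC, but the exact interval began at 1.03.

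The fitted changes of these 3 neighbours were -2.10 for ELANE (SE 2.04), -3.65 for PRTN3 (SE 2.26) and -2.60 for AZU1 (SE 2.32) on the log2 scale, with limma adjusted p of 0.597, 0.397 and 0.561. The blocked fit gave limma adjusted p of 0.0125 for ELANE, 0.0133 for PRTN3 and 0.0379 for AZU1. Because PRTN3 and AZU1 had no read in LSC of mouse 3, their fitted change depends in size on the prior that the authors added before taking logs. On log2(CPM + 1) with the block, AZU1 no longer passed.

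CTSG encodes cathepsin G, a protease that lies in a gene cluster with the granzymes. It stood at 56.5, 74.9 and 1.60 CPM in LSC of mice 1, 2 and 3, against 107, 249.9 and 5.37 CPM in bulk. The ordering of the mice was the same in both populations, with mouse 2 highest and mouse 3 lowest. CTSG had a log2 change of -1.46 (SE 1.62, limma adjusted p = 0.651). The block brought the SE to 0.27 and the adjusted p to 0.00898. GZMB, the granzyme B gene of the same cluster, went the other way, at 247, 99.2 and 95.6 CPM in LSC and 0.514, 0.339 and 0 CPM in bulk.

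The membrane protein gene MS4A3 stood at 202, 81.4 and 20.9 CPM in LSC of mice 1, 2 and 3, against 728, 481 and 44.8 CPM in bulk. Mouse 1 was highest in both populations, whereas mouse 2 was highest in both for MPO and CTSG. ELANE shared the order of MS4A3 in LSC but not in bulk. The log2 change of MS4A3, -1.84 (SE 1.06), had a limma adjusted p of 0.362. In the blocked fit that p was 0.00379, the lowest of the set. CST7 encodes cystatin F, a lysosomal inhibitor of cysteine cathepsins, among them the cathepsin C that activates the granule proteases. CST7 stood at 13.6, 17.4 and 1.82 CPM in LSC and at 29.4, 38.5 and 4.61 CPM in bulk. Its difference was nearly the same in every mouse, at -1.11, -1.15 and -1.33 in log2 CPM, and only 0.0940% of its variation was left over after population and mouse. Its log2 change was -1.20 (SE 0.98), with a limma adjusted p of 0.524, or 0.0311 in the blocked fit (SE 0.30).

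CEBPE, which drives the passage beyond the promyelocyte and the specific granule genes, had the fewest reads of the set and passed neither test. It stood at 3.62, 1.78 and 0 CPM in LSC of mice 1, 2 and 3, against 4.97, 7.54 and 0.192 CPM in bulk. Those values rest on 49, 28 and 0 reads in LSC and 29, 89 and 3 reads in bulk, so no fold is given for mouse 3, where both libraries were at or under the floor of 3 reads. On the log2 scale CEBPE stood at -1.99 with an SE of 2.03 (limma adjusted p = 0.619). The size of that change also depends on the added prior, and on log2(CPM + 1) it was -0.75. The block did not bring CEBPE past the threshold (SE 0.96, adjusted p = 0.188).

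Without the mice in the model, 0 of the 8 genes passed at a limma adjusted p of 0.05, where 1.33% of the 13755 genes tested were called lower and 2.71% higher. At an unadjusted p under 0.05 the count was also 0, and voom, a limma method for counts, called 0 on reads recovered from the table. The adjusted count stayed 0 without any 1 library or mouse. The unadjusted count did not: it was 7 without mouse 3 (lowest adjusted p 0.057) and 3 without bulk replicate 3 (lowest adjusted p 0.0728). It was 1 without LSC replicate 1 and 1 without LSC replicate 2. The share of all genes at that unadjusted p was not computed, so these counts cannot be set against it. With all libraries the adjusted p of the set ran from 0.362 to 0.651. The median log2 change was -1.98 over the 8 genes, or -1.65 with values without a read set to 3 reads, and -0.0036 over all genes tested. With the mouse as a block 7 of 8 passed as lower and none as higher, where the block called 7.71% of all genes lower and 8.25% higher. The 7 were all but CEBPE. The block count was 7 with reads outside MTRNR2L rows as the scale and 7 with voom. It was 5 without mouse 1, 7 without mouse 3 and 2 without mouse 2, when only MPO and MS4A3 passed. Of the 13755 genes, the block called 344 lower without mouse 1, 1567 without mouse 3 and 296 without mouse 2. With all mice it called 1060 lower, so the number called changed for all genes as well. With 2 mice the blocked fit has 1 residual degree of freedom. In the authors' deposited table, whose fold change is coded bulk minus LSC, the 8 genes had log2 fold changes of 1.20 to 3.31 and false discovery rates of 0.358 to 0.612.

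Being lower in LSC in 3 of 3 mice was seen for 8 of 8 genes, a pattern that 25.8% of all genes tested showed. For CEBPE in mouse 3 it rests on 0 against 3 reads, a difference not detectable at this depth. LSC and bulk libraries did not overlap, with LSC lower, for 11.9% of all genes but for 0 of these 8. The median difference over the 8 genes was -1.18 in mouse 1, -2.14 in mouse 2 and -2.86 in mouse 3, in log2 CPM. In mouse 3 it was -1.53 with the 3 genes without an LSC read set to 3 reads, so an order of mice 2 and 3 was not established. PRTN3 had the greatest difference of the set in mice 1 and 2, at -1.93 and -3.12. In mouse 3, among genes with reads in both libraries, MPO had the greatest estimate, 8.10-fold lower in LSC (exact 95% interval 6.92 to 9.53). The interval of ELANE (7.02-fold, 2.13 to 36.4) covers that of MPO, so their order was not established. Leaving out LSC replicate 3 alone leaves the low bulk library of that mouse without its partner, and the median unblocked change of the set was then 0.0081. The change was 0.19 for ELANE, 0.22 for AZU1, 0.31 for CTSG and 0.36 for CEBPE. It stayed negative for MPO (-0.18), CST7 (-0.18), PRTN3 (-0.87) and MS4A3 (-0.97), each nearer 0 than with all libraries. Without bulk replicate 3 the median was -3.42, and without LSC replicate 1 or 2 or bulk replicate 2 it was -2.98, -3.02 and -1.002.

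The mice differed more than the populations. Mouse 3 was below mice 1 and 2 in both populations for 8 of 8 genes, which held for 17.4% of all genes tested. The distance of mouse 3 from the mean of mice 1 and 2 ran, in log2 CPM, from -6.89 (ELANE) to -2.61 (MS4A3) for the 5 genes with a read in LSC of mouse 3, and from -5.98 (ELANE) to -2.87 (CST7) for all 8 in bulk. AZU1, PRTN3 and CEBPE had no read in LSC of mouse 3, so their distance there, their variance shares and their F below depend on the added prior. Averaged over both populations the median distance was -5.53 for the 8 genes, or -4.71 with values without a read set to 3 reads, and 0.0063 for all genes tested. Of the variation in log2 CPM, 71.9% (MS4A3) to 91.2% (CTSG) lay between mice and 8.21% (CTSG) to 25.4% (MS4A3) between populations. Over all genes tested the medians were 43.8% between mice and 26.8% between populations. These are shares of sums of squares, in which 3 mice take more than 2 populations by number alone.

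**Figure D2:**
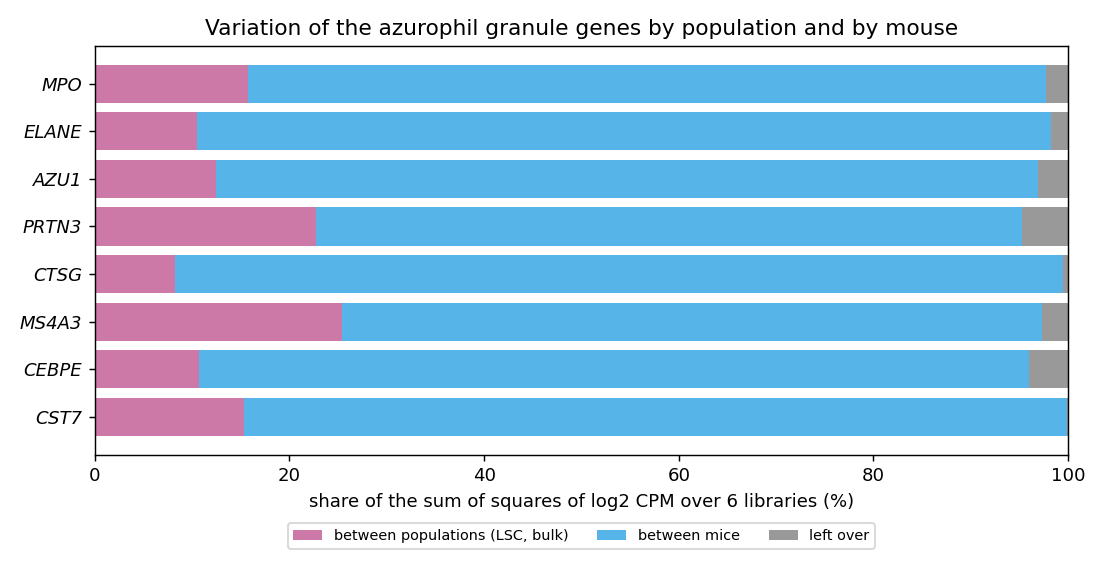
Share of the sum of squares of log2 CPM over the 6 libraries (horizontal axis, percent) that lay between LSC and bulk, between the 3 mice, and in neither, for each of the 8 genes. The share between mice is the largest for every gene, from 71.9% for MS4A3 to 91.2% for CTSG.

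A limma F test of the mouse term, beside population, called 7 of 8 genes, where it called 1.56% of all genes tested. CTSG had an F of 165 (adjusted p = 0.000705), MPO of 108 and ELANE of 106 (adjusted p = 0.00184 for both), and these were ranks 2, 4 and 5 of all genes tested. MS4A3 (adjusted p = 0.00831), AZU1 (0.011), CST7 (0.0136) and PRTN3 (0.0156) passed as well. CEBPE, at 0.0533, did not. The test compares 3 animals with 2 libraries each. Under the other filters and scalings it called 7 (7 of 7 tested at 5 CPM), and with the pseudocount of 1 it called 8. The share of all genes called was 3.83% at 5 CPM, 3.93% with the pseudocount of 1 and 1.43% to 1.61% in the others. Without a trend of variance on mean level it called 0 of these 8 and 0 of all genes.

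The genes of the set moved together but not in fixed proportion. Each correlated with the mean of the other 7 at a Pearson r of 0.893 (MS4A3) to 0.996 (AZU1) over the 6 libraries, which share mice in pairs. With AZU1, PRTN3 and CEBPE without a read in LSC of mouse 3, these r depend in part on the added prior. CDK11B, outside the set, reached 0.999 with the mean of all 8, so a high r is not particular to these genes. MPO took 49.3% of the reads on the 8 genes in LSC of mouse 1 (95% Wilson interval 48.2% to 50.3%), 80.3% in mouse 2 and 34.1% in mouse 3. In bulk its share was 47.6%, 68.6% and 63.9%. MS4A3 took 32.2%, 7.34% and 56.2% in LSC, against 39.8%, 14.1% and 27.9% in bulk, so it made up the largest part of what remained in LSC of mouse 3. ELANE took 5.20%, 2.20% and 0.587% in LSC and 3.30%, 4.70% and 0.954% in bulk. It was below 1% in both libraries of mouse 3 and above 2% in the other libraries. AZU1, PRTN3 and CEBPE had 0 of 511 reads in LSC of mouse 3, which allows a share of up to 0.587% each by a limit of 3 reads.

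**Figure D3:**
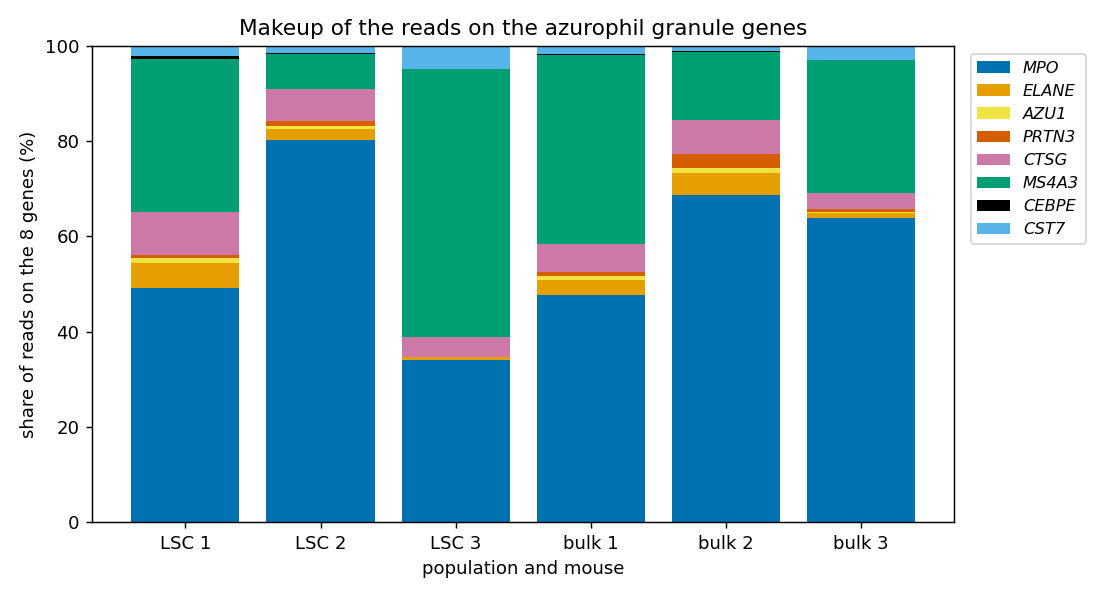
Makeup of the reads on the 8 genes in each library (vertical axis, percent of their summed reads), with LSC of mice 1 to 3 left and bulk of mice 1 to 3 right. MPO takes 80.3% in LSC of mouse 2 and 34.1% in LSC of mouse 3, where MS4A3 takes 56.2%.

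Other azurophil granule proteins and their partners did not all follow. Of 23 genes tested, 0 passed without the block, and with it 5 were lower and none higher. The median log2 change was -0.20. The members with the largest statistics were LYZ, CTSC, RNASE2 and RNASE3. LYZ, lysozyme, which monocytes also make, stood at 1045, 2210.2 and 855 CPM in LSC of mice 1, 2 and 3, against 2505, 4500.2 and 3976 CPM in bulk. LYZ was thus not low in bulk of mouse 3, and its adjusted p was 0.0805 in limma, or 0.0053 with the block. CTSC, cathepsin C, which cleaves the granule proteases into active form, was the one of these with higher values in LSC, at 854, 683 and 418 CPM against 446, 246 and 378 CPM in bulk (limma adjusted p = 0.216). RNASE2 and RNASE3, ribonucleases found mostly in eosinophil granules, changed by -2.83 and -4.15 on the log2 scale and were called in the blocked limma fit (adjusted p = 0.00345 and 0.00407).

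The defensins and BPI are late azurophil proteins, and they were named after their values had been seen. DEFA4 stood at 186, 125 and 11.2 CPM in LSC of mice 1, 2 and 3, against 178, 245 and 3.45 CPM in bulk. BPI, which binds endotoxin, stood at 70.9, 45.3 and 6.35 CPM in LSC and at 133, 152 and 4.41 CPM in bulk. DEFA1 stood at 1134.5, 619 and 36.1 CPM in LSC and at 1224, 1242.1 and 5.12 CPM in bulk, but it is nearly identical to DEFA3, so reads could be split between them. These 4 genes shared the low level in mouse 3 and passed the mouse term, with adjusted p of 0.00854 to 0.02 in limma. In mouse 3, however, all 4 were higher in LSC than in bulk, where all 8 genes of the set were lower. Their median difference in mouse 3 was 2.25 in log2 CPM. Neither the unblocked nor the blocked test called any of the 4 between populations.

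Specific and tertiary granule genes, which follow in maturation, also mostly stood higher in LSC than in bulk of mouse 3. Of 15 tested, none passed with or without the block. In LSC, 13 were lower than in bulk in mouse 1 and 14 in mouse 2, but only 2 in mouse 3, where 13 were higher. Over all genes tested, 46.3%, 49.6% and 51.3% were lower in LSC in mice 1, 2 and 3. A change of direction of this kind, lower in mice 1 and 2 and higher in mouse 3, was seen for 11 of 15, against 7.82% of all genes. Signs alone were counted, and CRISP3, HP and LCN2 were only 0.098, 0.33 and 0.72 above bulk in mouse 3, in log2 CPM. HP and LCN2 rest there on 32 against 29 and 19 against 13 reads, LSC against bulk. Whether the LSC to bulk difference of mouse 3 departed from that of mice 1 and 2 was tested in limma with a further term, chosen with these values in view, which leaves 1 residual degree of freedom and sets 1 animal against 2. For 10 of these 15 genes the term called a higher LSC to bulk difference in mouse 3, against 1.26% of all genes tested. It also called all 4 of the defensins and BPI in that direction. Those 4 were named after their values had been seen, and the term was chosen with the values of the 15 in view. That share is thus no measure for either list. Of the 8 azurophil granule genes the term called 1, MPO, with a lower LSC to bulk difference in mouse 3, against 3.5% of all genes. Its value for MPO was -1.57 (SE 0.35, limma adjusted p = 0.0024). An unadjusted p under 0.05 was reached by 4 of the 8. The share of all genes at that p was not computed, so this count cannot be set against it. Besides MPO the 4 were PRTN3 (-3.37), AZU1 (-2.63) and MS4A3, which went the other way (1.11). PRTN3 and AZU1 had no read in LSC of mouse 3, so their values depend on the added prior. Without a variance trend the term called no gene of these lists and 0 of all genes. LTF, lactoferrin, stood at 37.8, 45.8 and 25.0 CPM in LSC, against 192, 276 and 11.4 CPM in bulk. The members with the largest statistics, MMP8, MMP9, CRISP3 and CYBA, stood -1.74, -2.79, -1.46 and 1.65 from bulk on the log2 scale (limma adjusted p 0.23 to 0.408).

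**Figure D4:**
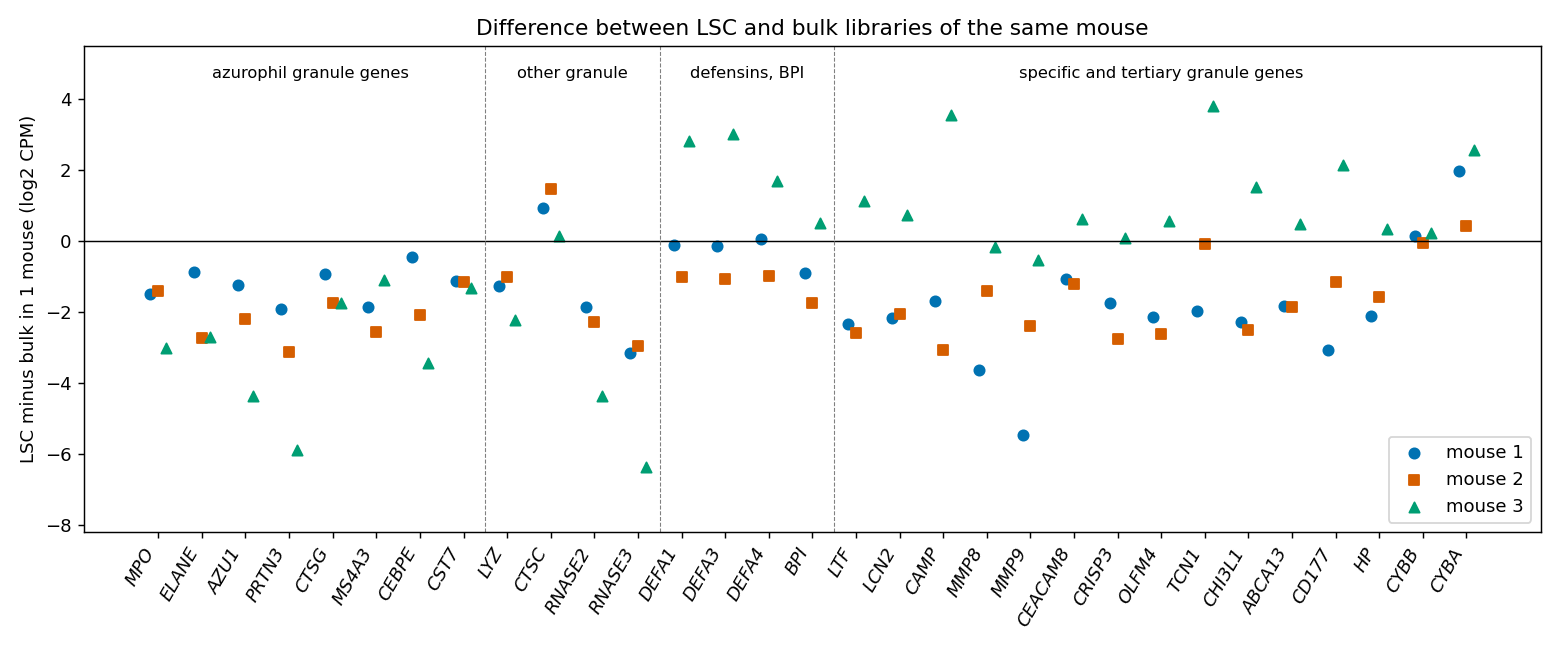
Difference in log2 CPM between the LSC and the bulk library of the same mouse (vertical axis) for the 8 azurophil granule genes, 4 other granule genes, the defensins with BPI, and 15 specific and tertiary granule genes, with 1 symbol per mouse. Mouse 3 lies below 0 for all 8 genes on the left and above 0 for the 4 defensin and BPI genes and for 13 of the 15 on the right. AZU1, PRTN3 and CEBPE had no read in LSC of mouse 3, so those points depend on the added prior.

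Transcription factors of the lineage were examined as a list of 13, of which 12 were tested. In LSC, IRF8, which favours monocytes and dendritic cells over granulocytes, was higher, and MYB, a progenitor factor, was lower, and 10 did not pass. IRF8 stood at 982, 565 and 932 CPM in LSC against 31.7, 41.5 and 31.5 CPM in bulk (limma adjusted p = 0.00048). MYB stood at 336, 173 and 153 CPM in LSC and at 723, 545 and 579 CPM in bulk (limma adjusted p = 0.0366). GFI1B and GATA1, of the erythroid and megakaryocytic lineages, stood at -3.88 and -2.80 on the log2 scale, LSC over bulk, called in the blocked fit alone (limma adjusted p = 0.0351 and 0.0484). That fit called 5 genes of the list lower, with MYB, CEBPB (-1.26) and CEBPD (-1.59) the others, and 2 higher, IRF8 and GATA2 (1.58). The mouse term called 1 gene of the list, GFI1, a repressor required for neutrophil formation, at 52.1, 59.1 and 16.5 CPM in LSC and 69.5, 78.4 and 15.4 CPM in bulk (limma adjusted p = 0.02). CEBPA, the factor of granulocyte commitment, was under the filter, with 0.802 to 2.35 CPM in LSC and 0.514 to 0.932 CPM in bulk.

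Of 14 receptors and mature neutrophil genes 1 rose, CSF2RB, and 13 did not pass. With the block 7 were lower and 3 higher, among the lower KIT, the stem cell factor receptor, and the calprotectin subunit gene S100A9, with log2 changes of -2.42 and -1.80 (adjusted p = 0.00806 and 0.00308). CSF2RB, the common beta chain of the interleukin 3 receptor, and CSF2RA had log2 changes of 2.21 (limma adjusted p = 0.0142) and 1.19 (0.0776). Among cystatins and cysteine cathepsins, relatives of CST7 or targets of cystatins, 2 of 14 rose, none fell and 12 did not pass. These were CTSB, cathepsin B (log2 change 2.03, limma adjusted p = 0.00944), and LGMN, legumain (3.27). CST3 and CTSH had changes of 1.14 and 1.13 and passed only with the block. CST7 was the 1 gene of that list called lower with the block. In the MS4A family 1 of 7 rose, MS4A6A, at 148, 132 and 172 CPM in LSC and 27.9, 32.2 and 51.9 CPM in bulk. MS4A1, which encodes CD20, had a change of -2.13 that passed with the block, and MS4A2 and MS4A4A had 0.34 and 1.14 and did not pass.

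Markers of other cell types differed between the same libraries in several ways. Of 10 plasmacytoid dendritic cell markers all were higher in LSC, with summed levels of 970.2 to 1865 CPM in LSC and 58.1 to 245 CPM in bulk. Among them, IL3RA encodes CD123, on which the LSC were sorted, so its direction was given by the sort. IL3RA made up 140, 48.0 and 135 CPM of the LSC sums in mice 1, 2 and 3. LILRA4 had no read in bulk of mice 1 and 2. Of 11 erythroid markers tested 2 were lower in LSC, or 8 with the block, with sums of 25.5 to 187 CPM in LSC and 148 to 741 CPM in bulk, lowest in mouse 3 in both. ALAS2, EPOR and AHSP had no read in LSC of mouse 3. B cell markers (14) summed to 162 to 238 CPM in LSC and to 337, 247 and 1705 CPM in bulk of mice 1, 2 and 3, so they were highest where the azurophil granule genes were lowest among bulk libraries. Of 13 tested 2 were lower in LSC, or 8 lower and 1 higher with the block. Eosinophil, basophil and mast cell markers (11) summed to 149, 351 and 128 CPM in LSC and to 362, 1127 and 61.2 CPM in bulk. EPX, PRG2 and PRG3 passed the mouse term, none of the 11 passed between populations without the block and 5 lower and 1 higher did with it, and PRG3 had no read in LSC of mouse 3. Monocyte markers (8) summed to 242 to 481 CPM in LSC and 939.5 to 1302 CPM in bulk. The sum was not low in bulk of mouse 3, but VCAN alone gave 672, 603 and 1021 CPM of it in mice 1, 2 and 3. Among bulk libraries FCN1 (6.08 CPM) and CD300E (37.0 CPM) were lowest in mouse 3, and no other of these markers was. Of 7 monocyte markers tested 1 was lower in LSC, or 3 with the block. Neutrophil markers (9), several shared with the specific granule list, summed to 221, 285 and 159 CPM in LSC and 616.5, 772 and 159.7 CPM in bulk, with 0 of 9 passing, or 1 lower with the block. T and natural killer cell markers (7) summed to 24.0 to 43.1 CPM in LSC and 22.8 to 38.8 CPM in bulk, with 0 of 7 passing in either fit. The part of these cells in the levels of the azurophil granule genes was not tested.

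The genes whose levels over the 6 libraries were most like the mean of the set were CDK11B, USP20, PKHD1, PSTPIP1, HYAL3, TOR2A, CLEC5A and ZDHHC3, with Pearson r of 0.992 to 0.999. The measure takes no account of size. The distance of mouse 3 from mice 1 and 2 was -0.73 for CDK11B and -1.45 for USP20 in log2 CPM, against a median of -5.53 for the set. CLEC5A, a receptor of monocytes and neutrophils, had a distance of -3.91. It stood at 19.1, 27.4 and 1.46 CPM in LSC of mice 1, 2 and 3, against 54.8, 89.3 and 4.80 CPM in bulk. CLEC5A passed with the block (log2 change -1.64, limma adjusted p = 0.00627) and in the mouse term (adjusted p = 0.00259), and PSTPIP1 passed the mouse term (0.0484).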

How the data were processed

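Values were taken from 1 table of the whole series, whose sample columns hold the authors' deposited log2 CPM. RSEM, Bowtie2, edgeR and the build hg19 are named in the submitters' processing notes, with no version or role. Per the labels' protocols, a NuGEN Ovation kit was used to amplify the RNA. Per the file headers, the table also holds the authors' log2 fold change, a likelihood ratio (a score), its p-value and the false discovery rate. The sample columns share a floor of 0.0197 CPM and rise above it in whole steps, from which reads were recovered, 100% of them whole within 0.1. These reads are estimates, and CPM in the text has the floor subtracted. Symbols and build are human although the samples are labelled as mouse, which is the host, so no coordinates or sequences are given.

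A gene entered the test when 3 or more libraries reached 1 CPM (13755 kept, 137 removed, all 8 genes of the set kept). The test of LSC against bulk was limma 3.58.1 in R 4.3.3, two-sided, run on the deposited log2 values with a variance trend in eBayes, with Benjamini-Hochberg adjustment over all genes tested. The mouse term was tested in the model of population plus mouse. A further term for the LSC to bulk difference in mouse 3 was added to it after the values had been seen. The code was tested on simulated reads. Same-numbered libraries come from 1 mouse, which makes the numbers a pairing. Their departures from the mean of each population had correlations of 0.327, 0.350 and 0.302 across genes. With 3 against 3, an exact permutation test cannot go below 0.1. No 2 libraries were alike within sampling noise (chi-square per degree of freedom 69.8 to 371). The genes of the set and all lists were chosen with earlier results of these data known. Of each list, the 4 genes outside the set with the largest statistic were named, with the 8 genes most like the mean of the set. Any further gene was picked with its values in view. Dates stood in place of 21 symbols.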

Additional observations from a re-analysis of the deposited data

How the results depend on the processing

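Without the mouse as a block, 0 of the 8 genes were called lower and 0 higher in each alternative run, and the changes stayed negative except without LSC replicate 3, when ELANE (0.19), AZU1 (0.22), CTSG (0.31) and CEBPE (0.36) turned positive. Over all libraries or mice left out, these ran from -4.10 to 0.19 for ELANE, -4.55 to 0.22 for AZU1, -3.10 to 0.31 for CTSG and -3.61 to 0.36 for CEBPE. With the replicate block 7 genes were lower, 7 with voom and the block, 7 with rescaling outside MTRNR2L and the block, 6 on log2(CPM + 1) with the block, and 2 to 7 with the block and a mouse left out. The last 3 were chosen after seeing the data. The mouse term called 7, but 0 without a variance trend, and the cause was not tested. A filter of 5 CPM removed CEBPE. The term for the LSC to bulk difference in mouse 3, added after seeing the data, called 1 azurophil granule gene and 4 defensin and BPI genes. It called 9 or 10 specific granule genes, and 0 of each list without a trend.

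Of all genes tested, 373 were higher and 183 lower in LSC. The counts were 1135 and 1060 with the block, 1216 and 1217 with voom and the block, 1253 and 945 with rescaling and the block, 1319 and 1319 on log2(CPM + 1) with the block, and 197 and 54 without a trend. On log2(CPM + 1) without the block 302 were lower. Leaving out 1 library or mouse without the block gave 37 to 346 higher and 0 to 169 lower, the extremes without mouse 1 at the low end. Leaving out a mouse with the block gave 386 to 1747 higher and 296 to 1567 lower, from 344 lower without mouse 1. In mouse 3, levels of a few reads limit AZU1, PRTN3, ELANE and CEBPE.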
